A study of Mus musculus with 209 samples.

Results

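Transcripts read from the father's copy of each gene were compared between 2-cell mouse embryos of N14 maternal knockout (KO) mothers and of wild-type (WT) mothers. The paternal counts of 9 KO and 8 WT libraries were used, 17 of the 209 samples of the series, and the genes described are those with at least 50 paternal counts summed over either group, which were 6296 of 24450. Each is labelled as a single-cell library of polyadenylated RNA from the 2-cell stage, with embryos collected 42 to 43 hours after hCG, the hormone given to trigger ovulation. The mothers were C57BL/6 females, 6 to 8 weeks old when superovulated, and were mated with C57BL/6 or PWK males. The labels of these samples do not say which male was used, and they name no animal. The genotype is read here as a loss of Nlrp14, a gene of the NLRP family that the oocyte expresses and passes to the embryo as RNA and protein. The embryo itself may carry an intact paternal copy. How the knockout allele was made is not given in the sources used here.

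After fertilisation the mouse embryo lives at first on RNA that the mother stored in the egg. Transcription of the embryo's own genome starts weakly in the zygote and strongly at the 2-cell stage, a step called zygotic genome activation, while stored maternal RNA is degraded. A sperm brings very little RNA, so a transcript carrying the father's sequence variants was, with few exceptions, made by the embryo. Counts of the mother's sequence mix stored RNA with new RNA. ERCC spike-ins, synthetic RNAs added to each sample, give a scale that is independent of the embryo's own RNA.

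The labels name no animal and do not say which libraries share an embryo or a mother. Each group was therefore treated as 1 sample, counts were summed over its libraries, and no test between groups was made. Intervals in parentheses are exact 95% Poisson intervals. They cover counting error only and leave out the spread between libraries, which is given as the lowest, median and highest library. A gene is called lower or higher when the pooled level differs at least 2-fold. Ratios are log2 of KO over WT.

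Total counts ran from 3788348 to 10303580 per library in WT and from 2704050 to 15007301 in KO. Paternal counts ran from 162462 to 454132 in WT and from 21895 to 127799 in KO. Nlrp14 was measured first, in the total counts. It stood at 106, 287 and 477 CPM (counts per 1000000, lowest, median and highest library) in WT and at 29.4, 67.3 and 86.4 CPM in KO, and the groups did not overlap. Its paternal counts were 0 to 5 per library in WT. They were 0 or 1 in KO libraries other than replicate 3, which held 18 paternal counts beside 15 maternal ones. All 12 markers of the 2-cell stage were at 1 CPM or more in both pools. Their sum was 1064, 2228 and 2952 CPM in WT and 240, 902 and 3492 CPM in KO. The 8 oocyte markers summed to 3522, 5394 and 11260 CPM in WT and to 5958, 13110 and 28765 CPM in KO. Some markers went against their sum, such as Zscan4c, higher in the KO pool, and Zp3, lower there. Of 11 cumulus and granulosa cell markers 4 reached 1 CPM in each pool, with summed levels of 26.9 to 80.0 CPM in WT and 26.8 to 49.6 CPM in KO, and their part in the results was not tested. Only 3 of 23 listed genes of these cells reached 50 paternal counts, 1 of them lower and none higher, with a median of 0.22.

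WT replicate 8 stood apart from the other WT libraries. It held 649 maternal counts per ERCC count, against 321 in the next WT library and 353 to 821 in KO. Its paternal share was 4.00%, the lowest in WT, and its Nlrp14 level of 106 CPM was also the lowest in WT, though above every KO library. The main counts, and the named ratios it moved most, are given with and without it.

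The embryo's paternal transcripts were scarcer in KO. Paternal counts per ERCC count were 27.0, 56.3 and 77.7 in WT (lowest, median and highest library) and 7.29, 19.6 and 33.95 in KO. The ranges overlapped, with 3 KO libraries above the lowest WT library. In the pools the value was 53.3 in WT and 19.3 in KO, 2.76 times lower, a log2 ratio of -1.47 (-1.47 to -1.46). Without WT replicate 8 it was 2.98 times lower. Maternal counts per ERCC count differed the other way, 312 in WT and 671 in KO, 2.15 times higher (2.601 times without WT replicate 8). Fewer genes had any paternal count: 7069 to 9551 per WT library and 3419 to 6520 per KO library, which also had fewer paternal counts.

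The paternal share of allele-assigned counts was 4.00, 17.8 and 24.7% in WT and 1.21, 3.02 and 8.68% in KO. Pooled, it was 14.6% (14.6 to 14.6) in WT and 2.79% (2.79 to 2.80) in KO, with exact binomial intervals. 2 KO libraries lay above the lowest WT library. That library was WT replicate 8, and without it no KO library reached the lowest WT share of 9.03%. The share depends on the amount of stored RNA as well as on new RNA, so it was also taken over genes under 1 CPM in WT oocytes. There the paternal share was 42.3, 47.7 and 49.5% in WT, close to an even split between the alleles, and 30.0, 35.9 and 43.4% in KO.

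Genes on the Y chromosome gave a second measure of paternal transcripts that needs no split by allele, since they can come only from the father. Of 17 libraries, 6 in WT and 8 in KO held more than 2 Y-linked counts. Summed over 10 Y-linked genes these libraries had 148, 240 and 391 counts per 1000 ERCC counts in WT and 8.65, 72.8 and 219 in KO. KO was 3.10 times lower in the pools, a log2 ratio of -1.63 (-1.70 to -1.57), and the highest KO libraries lay within the WT range. Of the 8 Y-linked genes with counts, Zfy2 and Zfy1, zinc-finger transcription factors, had the lowest ratios at -2.86 and -2.75. Uty, a relative of the histone demethylase Utx, stood at -2.45, and Eif2s3y, a translation initiation factor subunit, at -1.82. Usp9y, a ubiquitin protease, was at -0.25 and Ddx3y, an RNA helicase, at -0.63, both under 2-fold.

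**Figure D1:**
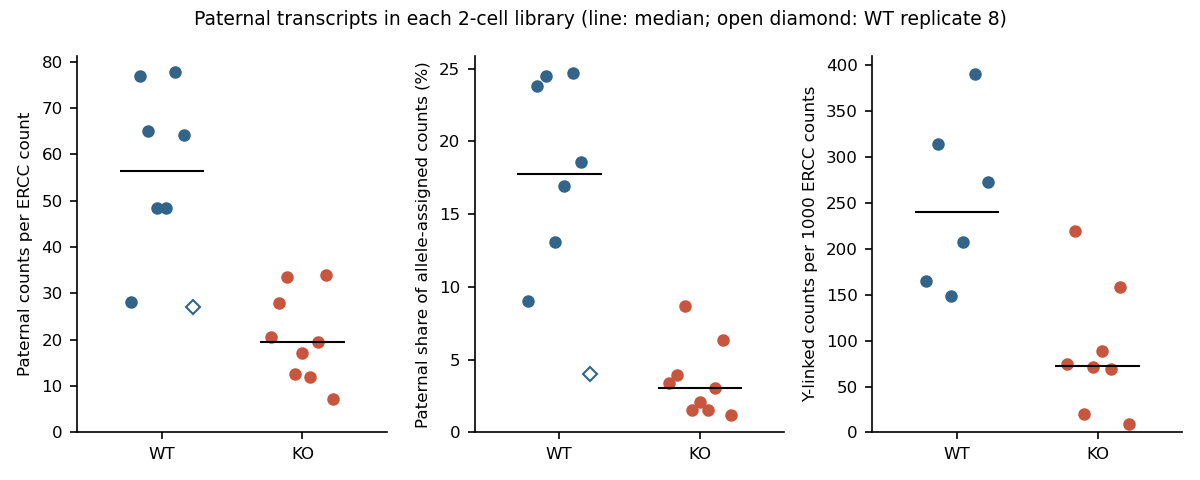
Paternal counts per ERCC count, paternal share of allele-assigned counts in percent, and Y-linked counts per 1000 ERCC counts, with a point for each 2-cell library and a line at the median. The Y-linked panel leaves out the 3 libraries with at most 2 Y-linked counts. KO medians of 19.6, 3.02% and 72.8 lie below WT medians of 56.3, 17.8% and 240, and WT replicate 8, the open diamond, lies among the KO libraries in the first and second panels.

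The X chromosome sorted the same libraries. WT replicates 3 and 8 and KO replicate 1 had paternal shares of 34.9, 7.90 and 7.72% over 51 X-linked genes and at most 2 Y-linked counts. The other 6 WT and 8 KO libraries, those with more Y-linked counts, had X-linked paternal shares of 0.0788 to 0.134% and 0.0926 to 0.208%. An embryo with a Y chromosome has no paternal X, so these small shares measure how often a maternal read was assigned to the father. Pooled, the rate was 0.117% (0.0909 to 0.147) in WT and 0.134% (0.113 to 0.157) in KO. Stored egg transcripts had a wide range of paternal shares. Gdf9, an oocyte growth factor, had 0.0936% in WT and 0.0890% in KO, and Oosp1, an oocyte secreted protein, 0.0836% and 0.0806%. Zp2 and Zp3, coat proteins of the egg, lay above the X-linked rate, at 0.698 and 16.7% in WT and 0.229 and 5.53% in KO, and so did Mos, a kinase of the maturing egg, at 2.30% (0.280 to 8.06, from 87 counts) and 0.432%. The interval of Zp2 in KO, 0.0988 to 0.450%, holds the X-linked rate. At the X-linked rate 0.684% of WT and 4.66% of KO paternal counts would be wrongly assigned maternal reads. With these subtracted the log2 ratio of paternal counts per ERCC count was -1.53.

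The paternal counts of the X-linked list therefore come almost wholly from 2 WT libraries and 1 KO library. Of its 30 measured members 24 were called lower and none higher, with a median ratio of -2.23, but that contrast mixes libraries with and without a paternal X. By the RefSeq gene table, of the members with a chromosome 142 lie on the X chromosome and 119 of them were called lower, among them 2 burst genes, 1 RNA polymerase or general factor gene, 4 ribosomal protein, 2 ribosome biogenesis, 2 translation factor and 2 respiratory chain genes. In the 3 libraries with paternal X counts, the X-linked sum was 1.57 and 1.21% of paternal counts in WT replicates 3 and 8 and 1.35% in KO replicate 1. Prps1, an enzyme of nucleotide synthesis, was the most counted member, and KO replicate 1 held 98.8% of its KO paternal counts.

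Gene by gene, paternal counts were scaled first to the total paternal counts of each pool, which removes the overall difference, and then to ERCC counts, which keeps it. Scaled to total paternal counts, 2234 of 6296 genes (35.5%) were lower in KO and 878 (13.9%) were higher. Scaled to ERCC counts, 4756 (75.5%) were lower and 191 (3.03%) were higher. The step from the first scale to the second moves every ratio by -1.47, so a gene at 0 on the first scale was lower per ERCC count by the overall difference in paternal counts. Without WT replicate 8, 2225 genes were lower and 901 higher on the first scale, of which 2129 and 827 were also called with all libraries. With only the 14 libraries with more than 2 Y-linked counts, 2005 were lower and 793 higher.

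The filter shaped these counts. Of the members, 2597 had 50 counts in both groups, 3530 in WT only and 169 in KO only. Genes that passed through WT only had fewer than 50 KO counts, and 1884 of them (53.4%) were lower, 87 higher and 1559 between. All 169 that passed through KO only were called higher. Among the 2597 measured in both groups 350 (13.48%) were lower and 622 (24.0%) higher on the first scale. A list's count therefore depends on how many of its genes passed in each way. Genes just inside the filter, with 50 to 54 counts in the higher group, had a median ratio of -0.01 over 277 genes, and 326 genes just outside it, with 45 to 49, a median of -0.16. On the first scale all 9 KO libraries lay below all 8 WT libraries for 56 genes (0.889%), and above all of them for 4 (0.0635%). Per ERCC count 153 genes (2.43%) lay below without overlap.

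The mother's copies of the same genes did not follow. Members were sorted by their level in 14 WT oocytes, which use no 2-cell library. For the 2779 genes at 20 CPM or more in oocytes, the median ratio per ERCC count was -1.83 for the paternal allele and 0.90 for the maternal allele. For 2167 genes from 1 to 20 CPM it was -1.98 and 0.09. For 1350 genes under 1 CPM it was -2.08 and -1.14, so that both alleles were lower. Members were picked by paternal counts, which favours genes high in WT on that allele, so the sums over every gene of a class are given too. The paternal sums per ERCC count were 2.84, 2.94 and 2.32 times lower in KO from the highest to the lowest oocyte class. The maternal sums had log2 ratios of 1.20, 0.42 and -0.62.

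**Figure D2:**
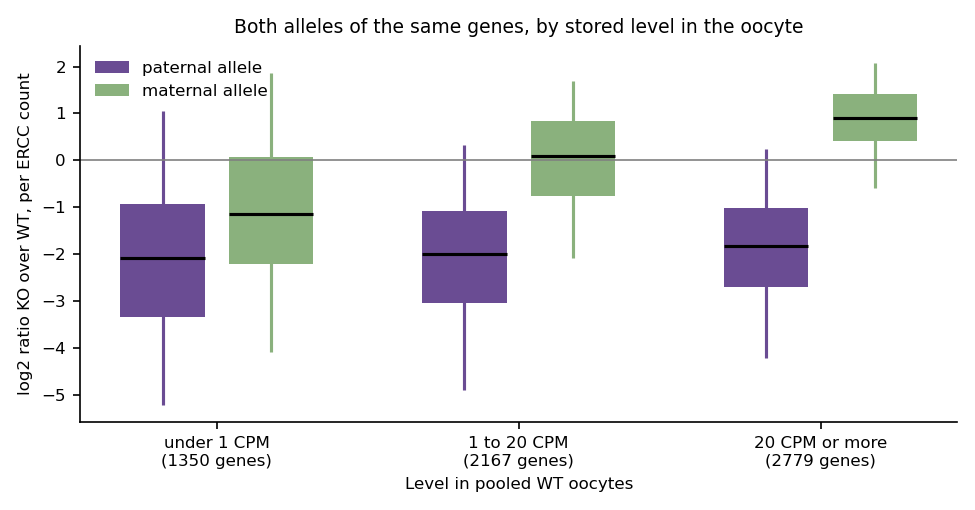
Log2 ratio of KO over WT per ERCC count for the paternal and maternal allele of the 6296 genes, split by their level in WT oocytes. Boxes span the quartiles, vertical lines the 5th to 95th percentiles and black lines the medians, which stay near -2 for the paternal allele while those of the maternal allele go from -1.14 to 0.90.

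The 12 genes of lowest ratio had 0 to 9 paternal counts in KO. Which genes these are depends on the 3 counts set for a pool at 0. By that setting Tead4, with 186 WT and 0 KO counts, stands at -4.21, but Synpr, with 167 and 1, at -5.64. Zfp160, a zinc-finger gene, had 0, 217 and 614 paternal CPM (counts per 1000000 paternal counts) in WT and 0, 0 and 10.96 in KO, where 1 count remained against 624 in WT. WT replicates 1 and 8 were at 0, and the ratio was -7.54 (-12.8 to -5.05). Cxadr, a cell adhesion protein of tight junctions and a virus receptor, had 0, 176 and 775 paternal CPM in WT and no count in any KO library. It was 60.02 times lower when KO is set to 3 counts, and the interval of its log2 ratio ends at -5.60. Hspb1, a small heat shock protein, had 73.9, 489 and 1293 paternal CPM in WT and 0, 0 and 76.4 in KO. Its ratio was -5.70 (-6.84 to -4.78), and only its highest KO library reached the lowest WT library, replicate 8.

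For 4 of the 12 lowest genes the groups did not overlap, against 56 of all 6296 genes (0.889%). The 4 were Tmem216, a membrane protein of the cilium base, Slc4a1ap, Pafah1b3, a subunit of an enzyme that inactivates platelet-activating factor, and Erlin1, a scaffold of the endoplasmic reticulum. All 12 had passed the filter through WT only, and the rule that named them asked for KO libraries below the WT median. Little overlap was thus built into their choice. Tmem216 had 73.9, 317 and 425 paternal CPM in WT and 0, 0 and 23.0 in KO. Slc4a1ap had 30.4, 190 and 347 in WT and 0, 0 and 14.3 in KO. The other 5 genes were Platr22, a noncoding RNA, Zmat5, a protein of the minor spliceosome, Atp1b2, a sodium pump subunit, Tdpoz2, and Synpr, a vesicle membrane protein. The ratios of these 9 genes, each with 1 or 2 KO counts, ran from -6.79 (-9.84 to -4.93) for Tmem216 to -5.51 (-8.56 to -3.64) for Erlin1. The maternal copies parted: per ERCC count Platr22, Zmat5, Atp1b2 and Tdpoz2 were also lower on the maternal allele (-3.26, -3.24, -3.55 and -3.19), while Zfp160, Tmem216 and Slc4a1ap were not (0.85, 0.29 and 0.53). The first 4 were under 2 CPM in WT oocytes, and Zfp160, Tmem216 and Slc4a1ap were at 38.9, 33.3 and 69.8 CPM.

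At the other end, 11 genes described here had ratios from 4.04 to 8.74. All but Fbxw21 and Kdm1b had passed the filter through KO only, where every member was called higher. Mid1, a ubiquitin ligase, had 0, 0 and 117 paternal CPM in WT and 24.3, 172 and 548 in KO, a ratio of 4.04. Fbxw21, an F-box gene of a family with close copies, had 0, 1.68 and 714 in WT and 68.9, 761 and 3186 in KO. WT replicate 8 held 88.5% of the WT paternal counts of Fbxw21 and 73.1% of those of Mid1. Without it the ratios of Fbxw21 and Mid1 moved from 4.22 and 4.04 to 7.24 and 5.82.

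Cxcl1, a chemokine, and Stc1, a secreted hormone, were hardly expressed in WT oocytes. Cxcl1 had no paternal count in 7 WT libraries, 135 CPM in replicate 8, and 0, 241 and 1628 in KO, a ratio of 4.71, or 7.48 without replicate 8, where WT is set to 3 counts. Stc1 had 0, 6.78 and 135 CPM in WT and 0, 219 and 1211 in KO, a ratio of 4.21, or 5.14 without replicate 8. The others were Zfp994, Bivm, Wdr89, Ms4a8a, Ankrd37 and Csmd1, with ratios from 4.14 for Csmd1 to 8.74 (6.23 to 14.1) for Zfp994, which had 1 WT count. Without replicate 8 the ratios of Wdr89 and Ankrd37 went from 4.54 and 4.28 to 5.29 and 4.93. Genes with close copies, such as Zfp994 and Fbxw21, are uncertain where the counting could split reads between copies.

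Kdm1b, a histone demethylase of the oocyte, needs a reading of its own. It had 6.61, 70.8 and 1022 paternal CPM in WT, the highest in replicate 8, and 586, 1506 and 5162 in KO, a ratio of 4.17 (3.99 to 4.36), or 5.35 without that library. Its allele-assigned counts were paternal in all 281 cases in WT and in 99.8% in KO, although WT oocytes, which hold no paternal genome, contained 186 CPM. New paternal RNA and stored RNA assigned to the father cannot be told apart for this gene.

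**Figure D3:**
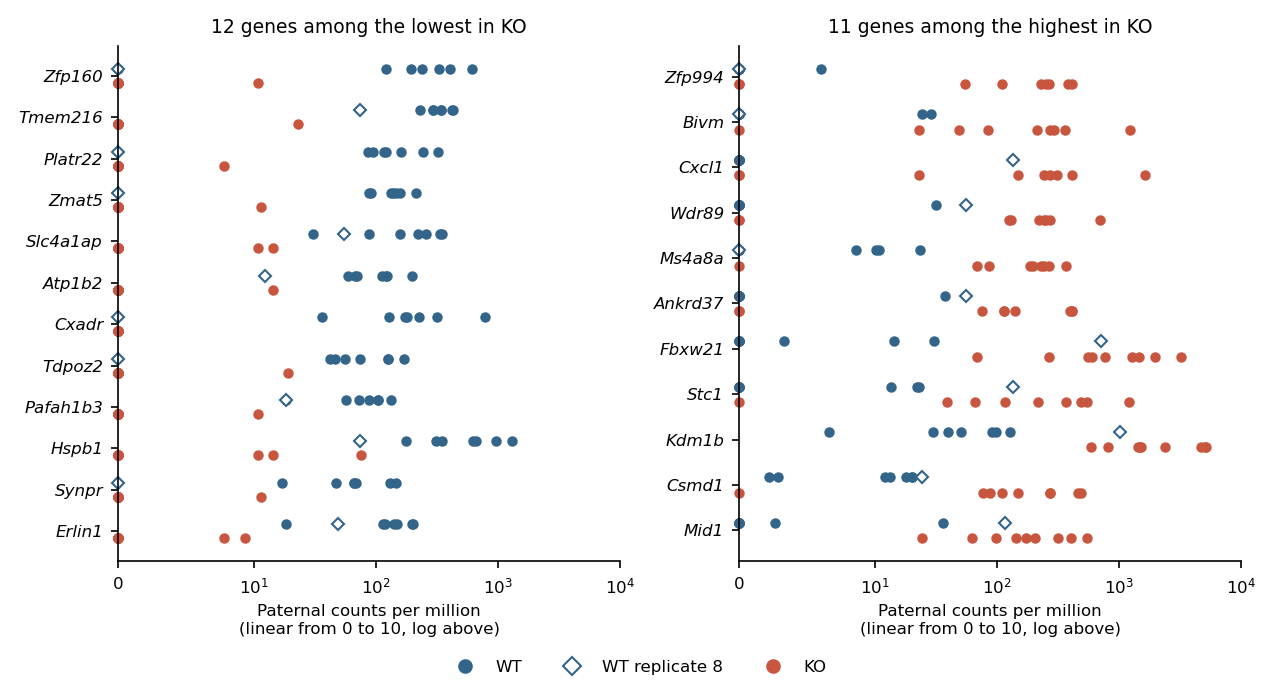
Paternal CPM in each library for the 12 lowest genes and 11 of the highest, on an axis that is linear from 0 to 10 and logarithmic above. Nearly all KO points of the left panel lie at 0, and WT replicate 8, the open diamond, lies with KO for several genes of both panels, such as Fbxw21 and Kdm1b at 714 and 1022.

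WT replicate 8 carried this pattern beyond the genes named. It was the highest WT library for 415 of the 878 genes called higher (47.3%) and for 18.3% of all members. It was the lowest WT library for 874 of the 2234 genes called lower (39.1%) and for 27.2% of all members. These calls include replicate 8 in the WT pool.

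The 10 genes with the most paternal counts in WT behaved differently from each other. Dnajb9, a chaperone of the endoplasmic reticulum, had 4095, 5068 and 5791 paternal CPM in WT and 3390, 6050 and 9201 in KO, a ratio of 0.18, and -1.29 per ERCC count, close to the overall difference. Scaled to total paternal counts Pttg1, securin of the cell cycle, stood at 0.28. Calm2, a calmodulin, H2afz, a histone variant, Cggbp1 and Set, a histone chaperone, were at -0.29, -0.84, -0.79 and -0.91 on that scale. Tmed5, a protein of vesicle transport, had 277, 3063 and 4391 CPM in WT and 57.8, 405 and 1034 in KO, a ratio of -2.83 (-3.00 to -2.67). Every WT library except replicate 8 lay above every KO library.

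Rplp0, a ribosomal stalk protein, Paip1, a translation regulator that binds poly(A)-binding protein, and Zfp979 were called higher, at 1.19, 2.06 and 1.81. Rplp0 had 2641, 3546 and 11541 paternal CPM in WT and 2760, 9185 and 15294 in KO. Per ERCC count it was at -0.28, so its sign depends on the scale. Paip1 and Zfp979 were also stored in WT oocytes, at 10933 and 1166 CPM. Their paternal shares were nearly the same in both groups, 9.20 and 8.33% for Paip1 and 34.1 and 29.9% for Zfp979, whereas the median share of genes at 20 CPM or more in oocytes was 18.1% in WT and 2.87% in KO.

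The 2-cell burst genes, which are switched on briefly at genome activation, lay on both sides. Of 50 listed genes 37 were measured, 9 were lower and 14 higher on the first scale, and their median was 0.31 against -0.45 for all members. All 14 higher genes were among the 31 that passed in both groups (45.2%, against 24.0% of all such genes). Several of the genes named here were chosen after their values were seen. Timd2, a membrane receptor, had 237, 894 and 2178 paternal CPM in WT and 0, 143 and 556 in KO, a ratio of -2.30 (-2.53 to -2.08), and Trim43b, a gene of the Trim43 cluster, had 696, 2111 and 2327 in WT and 43.6, 386 and 1401 in KO, a ratio of -1.83. Zfp352, a zinc-finger gene, had 533, 1334 and 6919 CPM in WT, the highest in replicate 8, and 1735, 5955 and 12905 in KO, a ratio of 1.93 (1.87 to 2.00). The Usp17l genes, ubiquitin proteases, were all higher or level: Usp17ld, Usp17le, Usp17la and Usp17lc had 3.44, 3.02, 2.99 and 2.82, and Usp17lb 0.37.

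Unlike most genes, part of the burst list was higher in KO even per ERCC count. Usp17ld had 10.8, 34.5 and 128 paternal CPM in WT and 76.7, 505 and 1059 in KO, and its ratio per ERCC count was 1.98. The ratios per ERCC count were 1.55 for Usp17le, 1.53 for Usp17la, 1.35 for Usp17lc and 1.07 for Tmem92. These are the 5 of 37 list members more than 2-fold higher, while 20 were lower. Over all 6296 genes 3.03% were higher and 75.5% lower on that scale. The maternal copies of these 5 burst genes were higher as well, at 1.70, 1.70, 2.16, 0.86 and 1.42. WT oocytes held 0 to 3.15 CPM of these 5 genes. Zscan4d, of the Zscan4 family that marks the 2-cell stage, was at 1.32 on the first scale and -0.15 per ERCC count. The Usp17l, Zscan4, Trim43 and Pramef genes are families of close copies, and the authors' counting could split their reads. WT replicate 8 held 73.7% of the WT counts of Usp17la and 62.5% of those of Usp17le, and without it their ratios were 4.82 and 4.33.

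**Figure D4:**
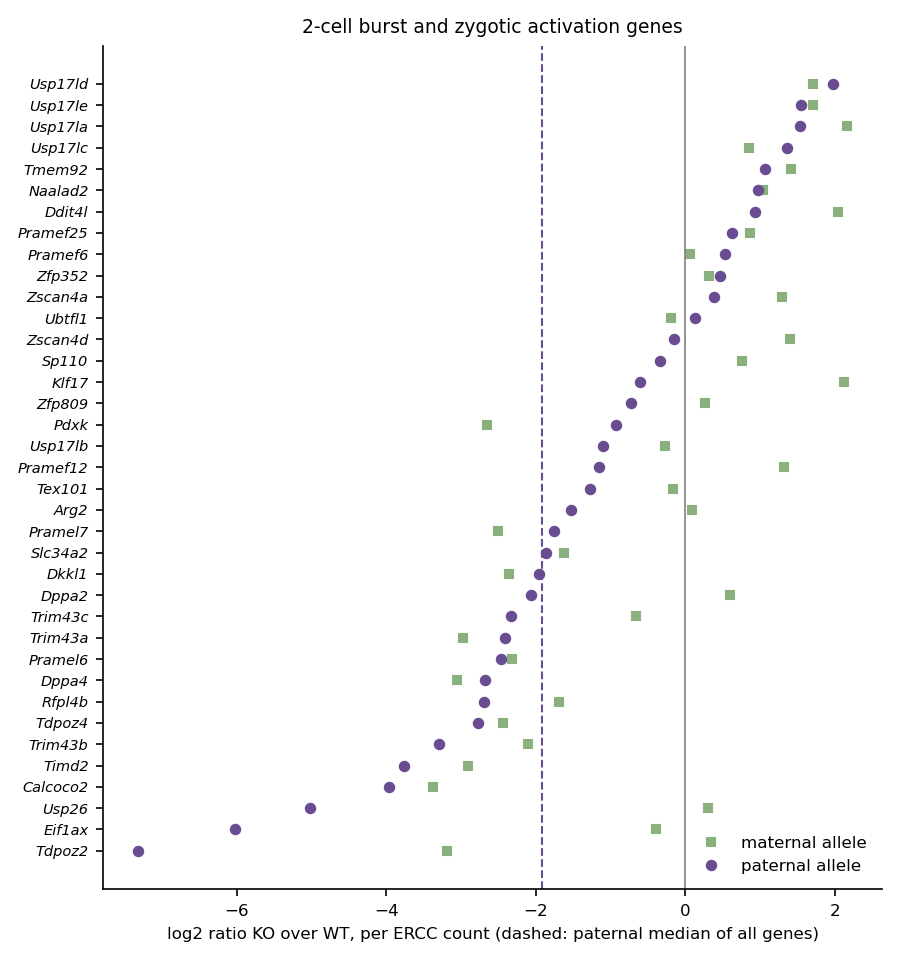
Log2 ratio of KO over WT per ERCC count for the paternal and maternal allele of the 37 measured 2-cell burst and activation genes, with a dashed line at the paternal median of all genes, -1.92. The 5 genes at the top, from Usp17ld at 1.98 to Tmem92 at 1.07, are higher in KO on the paternal allele, and genes at the bottom such as Timd2 and Tdpoz2 are lower on both alleles.

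The start regions of a pair of burst genes that were higher and of Timd2, which was lower, are shown because their paternal ratios differed in sign. They run from 250 bases before to 50 bases after the start in RefSeq, build GRCm38.p6, which is not the build of the count tables (mm9). Capitals mark a match on either strand to GGATTA, the core bound by Obox and Otx homeodomain factors, which reads as TAATCC on the other strand, or to TATAAA, the TATA box. The core of ETS sites, CCGGAAG, was searched too, as was that of orphan nuclear receptor sites, AAGGTCA.
Zfp352 (chr4:90218570-90218869, plus strand): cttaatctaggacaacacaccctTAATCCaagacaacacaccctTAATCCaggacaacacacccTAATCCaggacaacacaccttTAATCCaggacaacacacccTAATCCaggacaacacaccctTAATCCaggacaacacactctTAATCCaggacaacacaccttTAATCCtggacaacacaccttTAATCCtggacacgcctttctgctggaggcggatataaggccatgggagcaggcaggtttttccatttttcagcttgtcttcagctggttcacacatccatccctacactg
Usp17ld (chr7:103252456-103252755, minus strand): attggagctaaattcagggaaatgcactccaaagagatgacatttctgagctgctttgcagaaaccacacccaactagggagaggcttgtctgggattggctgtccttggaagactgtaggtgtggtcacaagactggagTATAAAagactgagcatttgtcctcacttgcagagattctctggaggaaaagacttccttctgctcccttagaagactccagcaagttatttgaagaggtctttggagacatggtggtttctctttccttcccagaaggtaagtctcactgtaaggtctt
Timd2 (chr11:46707055-46707354, minus strand): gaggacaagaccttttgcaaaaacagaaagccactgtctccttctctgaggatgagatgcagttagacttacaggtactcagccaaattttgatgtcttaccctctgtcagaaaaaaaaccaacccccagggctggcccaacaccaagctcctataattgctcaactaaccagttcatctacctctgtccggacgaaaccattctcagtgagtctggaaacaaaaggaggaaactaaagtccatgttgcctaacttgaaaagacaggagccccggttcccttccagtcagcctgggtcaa
The Zfp352 region held 9 matches to GGATTA, all on the minus strand as TAATCC. The Usp17ld region held 1 TATAAA, and none of the 4 motifs was in the Timd2 window. Of 27025 promoters 7.16% held GGATTA, 14.2% TATAAA, 9.12% CCGGAAG and 4.66% AAGGTCA. Among 4971 members matched by symbol, GGATTA stood in 5.35% of promoters of genes called lower and 5.32% of those called higher. For members between the calls it was 6.74%. TATAAA stood in 6.21 and 9.31%, and CCGGAAG in 21.1 and 15.1%, against 6.97 and 21.6% for members between the calls. These are matches of letters in a fixed window.

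Obox6 and Crxos, homeobox genes of the cleavage embryo, were lower. Obox6 had 289, 1216 and 1643 paternal CPM in WT and 57.8, 322 and 634 in KO, a ratio of -2.01 (-2.21 to -1.81). Crxos had 92.3, 735 and 1090 in WT and 0, 97.2 and 665 in KO, a ratio of -1.64. The maternal copies were lower too, at -3.79 and -4.31 per ERCC count. Obox3 was at 0.35. Only 3 of 9 listed Obox and related genes reached 50 paternal counts.

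Among 24 measured transcription factors of early development 6 were lower and 5 higher, with a median of -0.08. Tead4, which directs the trophectoderm programme, had 0, 79.2 and 134 paternal CPM in WT and no count in KO. It was 18.5 times lower with KO set to 3 counts, and the interval of its log2 ratio ends at -3.89. Gabpa, an ETS factor, had a ratio of -1.50 (-1.72 to -1.29), and all KO libraries lay below all WT libraries. Dppa5a, an RNA-binding protein of pluripotent cells, stood at -2.68. Id2, an inhibitor of helix-loop-helix factors, had 156, 572 and 1267 CPM in WT and 826, 1597 and 6577 in KO, a ratio of 1.69 (1.58 to 1.81), and per ERCC count it was at 0.23.

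In the lists of the transcription and translation machinery, lower calls outnumbered higher ones, as they did among all members (35.5% lower and 13.9% higher). Only the RNA polymerase and general transcription factor list had a larger share of lower genes than all members. The ribosome biogenesis, ribosomal protein, translation factor and splicing lists had smaller shares of lower genes. Each of these lists also had a smaller share of higher genes than all members. Of 43 measured RNA polymerase and general transcription factor genes 18 were lower and 5 higher, with a median of -0.47. Of the 28 that passed in both groups 9 were lower (32.1%, against 13.48% of all such genes). Polr1e, a subunit of RNA polymerase I, had 142, 553 and 1032 paternal CPM in WT and 0, 54.8 and 138 in KO without overlap, a ratio of -3.43 (-3.91 to -2.98). Of 64 ribosome biogenesis genes 22 were lower and 2 higher, median -0.42. Nop16, a nucleolar protein, was at -5.11 (-6.06 to -4.30), with 0, 560 and 964 CPM in WT and 0, 0 and 137 in KO, and Wdr12 at -3.85. Of 67 cytosolic ribosomal protein genes 18 were lower and 1 higher, Rplp0, with a median of -0.41. The X-linked Rpl10, Rpl36a, Rpl39 and Rps4x are 4 of the 18. Their sum took 1.98, 2.54 and 3.199% of paternal counts in WT and 1.74, 2.46 and 3.18% in KO, so the share of this group did not part the groups. Of 41 translation factors 9 were lower and 3 higher, median -0.09, and of 40 splicing genes 11 and 5, median -0.28.

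The nuclear subunits of the respiratory chain had 21 of 48 lower and 4 higher and a median of -0.89. Of these 48, 33 passed the filter through WT only, with 19 lower, and 15 in both groups, with 2 lower, close to the shares of all genes that passed in those ways (53.4 and 13.48%). The X-linked Ndufb11 and Cox7b are among them. Uqcr10, of complex III, stood at -2.95 (-3.71 to -2.27) and Cox6a1, of complex IV, at -2.35. Of 32 proteasome genes 11 were lower (34.4%, against 35.5% of all members) and 2 higher, median -0.55. Among them Psmd7 stood at -1.74 and Psma5 at 1.63. Of 31 histone and chromatin regulators 10 were lower (32.3%) and 3 higher, median -0.82, and 8 of the 10 had passed through WT only. Smarcb1, of the SWI/SNF complex, stood at -1.71, and Brd2, which binds acetylated histones, at 1.97 (1.64 to 2.31), with every KO library above every WT library. The other genes above without overlap, chosen for that after their values were seen, were Higd1a, a mitochondrial hypoxia-induced protein, Zfp600 and the model 3110045C21Rik. Higd1a had 169, 674 and 1266 paternal CPM in WT and 1691, 2116 and 4034 in KO.

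The lists with the smallest shares of lower genes were stress genes and glycolysis. Of 25 integrated stress response and chaperone genes 1 was lower, Hspb1, and 8 higher, with a median of 0.51. All 8 higher genes were among the 22 that passed in both groups (36.4%, against 24.0% of all such genes). Ddit3, a stress transcription factor, was at 2.21 (1.85 to 2.58), Hspa8 at 1.77 and Ppp1r15a, which restores translation after stress, at 1.67. For these 3 genes all 9 KO libraries lay above the WT median, but the share of all members with that trait was not counted. Per ERCC count the 3 genes were at 0.75, 0.30 and 0.20, none past 2-fold, and the median of the list was -0.95. Of 28 genes of glycolysis and one-carbon metabolism 2 were lower and 6 higher, median -0.02. Ldha, lactate dehydrogenase, had 48.7, 126 and 659 CPM in WT and 356, 579 and 2116 in KO, a ratio of 2.18 (1.99 to 2.37), and 0.71 per ERCC count.

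Cell cycle genes had 6 of 46 lower and 14 higher, with a median of 0.40. Of the 36 that passed in both groups 13 were higher (36.1%, against 24.0% of all such genes). Aurka, a mitotic kinase, had 286, 790 and 1582 paternal CPM in WT and 1187, 2292 and 3691 in KO, a ratio of 1.65 (1.56 to 1.75), and Mcm10, of the replication fork, stood at 2.28. Gins2, of the replicative helicase, and Ccnd2, a cyclin of early cell cycles, were lower at -3.46 and -2.29. Of 18 p53 and apoptosis genes 3 were lower and 5 higher, with Bid at -4.24 and Gadd45g at 2.73. Of 18 adhesion genes 5 were lower and 1 higher, with Itgav at -2.74. In TGF-beta and BMP signalling 6 of 12 genes were lower and 2 higher, with a median of -1.14, and all 6 had passed through WT only, as had 8 of the 12. Smad7, an inhibitor inside the cell, had 184 WT and 2 KO counts, a ratio of -4.77 (-7.83 to -2.90), and Tgfbr1, a receptor, -2.06. Id2 and Bambi, a decoy receptor, stood at 1.69 and 1.84 and had the most counts of the list. Its summed share of paternal counts went the other way from its median, with library medians of 0.19% in WT and 0.31% in KO.

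**Figure D5:**
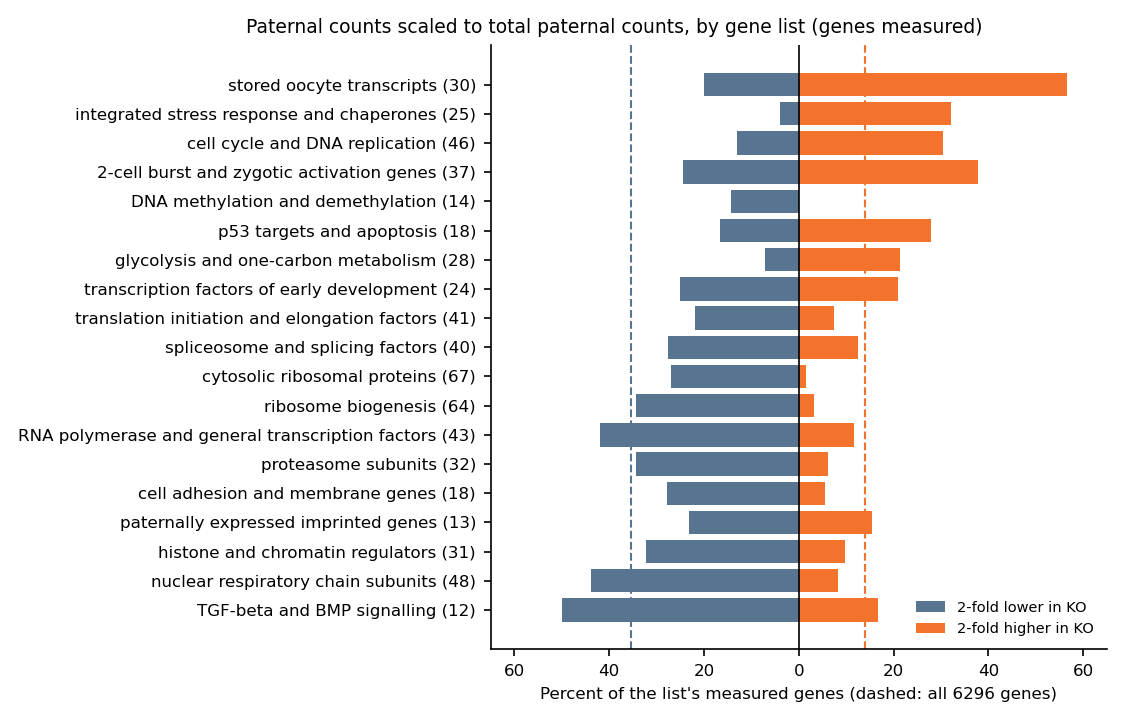
Percent of measured genes in each list of at least 10 that were 2-fold lower (left) or 2-fold higher (right) in KO, on counts scaled to total paternal counts, with dashed lines at 35.5 and 13.9% for all 6296 genes. Stress, cell cycle and burst lists reach past the dashed line on the higher side. So do the stored oocyte list, longest at 56.7%, and the p53, glycolysis, early transcription factor, TGF-beta and paternally expressed imprinted lists. TGF-beta, respiratory chain and RNA polymerase lists reach past the dashed line on the lower side. Of their genes 8 of 12, 33 of 48 and 15 of 43 had passed the filter through WT only. Of the 28 RNA polymerase list genes that passed in both groups 9 were lower (32.1%), against 13.48% of all such genes. In the stress, cell cycle and burst lists 22 of 25, 36 of 46 and 31 of 37 genes had passed in both groups. Among these 36.4, 36.1 and 45.2% were higher, against 24.0% of all genes that passed in both groups.

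Genes of DNA methylation were near the middle. Of 14 measured, 2 were lower and none higher on the first scale, with a median of 0.18, and 9 were lower per ERCC count. Dppa3, which protects the maternal genome from demethylation, had 1139, 2192 and 3299 paternal CPM in WT and 639, 1025 and 1620 in KO, a ratio of -1.23 (-1.35 to -1.12), while its maternal copy was at 1.76 per ERCC count. Dnmt3l, cofactor of the de novo methyltransferases, was at -1.68 (-2.23 to -1.18). Dnmt3a, Dnmt3b, Tet1, Uhrf2, Trim28 and Zfp57 lay between -0.12 and 0.67. The enzymes Dnmt1, Tet2 and Tet3 were not among the members.

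Imprinted genes expressed from the father showed the split by allele directly. Nnat had 258 paternal and no maternal counts in WT and 41 and 0 in KO. Sfmbt2 had a paternal share of 94.3% in WT and 100% in KO, and Jade1, 86.6 and 95.6%. In other genes the paternal share was lower in KO. Zrsr1 had 96.7% in WT and 61.2% in KO, the latter from 60 paternal and 38 maternal counts, Kcnq1ot1, a noncoding RNA that silences its neighbours, 93.2 and 79.0%, and Impact 80.3 and 21.4%. Slc38a4 had 62 paternal and 0 maternal counts in WT and 11 and 11 in KO. Of 13 measured genes 3 were lower, Impact, Inpp5f and Usp29, and 2 higher, Kcnq1ot1 and Peg3, with a median of -0.75. These are 23.1 and 15.4% of the list, against 35.5 and 13.9% of all members. Peg3, with 16 WT counts, had passed the filter through KO only, where every member was called higher. Kcnq1ot1 and Inpp5f lay at the threshold, at 1.03 and -1.04, and were at 0.29 without KO replicate 3 and -0.26 without WT replicate 6. Of 7 genes imprinted the other way 3 were lower, Phlda2, Ube3a and Cdkn1c, and 3 higher, Ascl2, Asb4 and Nap1l4. The 3 lower genes had passed through WT only, and Ascl2, with 13 WT counts, through KO only. Phlda2 stood at -3.19 (-4.07 to -2.43).

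Stored oocyte transcripts had 17 of 30 higher and 6 lower on the first scale and a median of 1.16. Of the 17, 5 had passed through KO only, where every member was called higher. All 6 lower genes had passed through WT only. Among the 16 that passed in both groups 12 were higher (75%) and none lower, against 24.0 and 13.48% of all such genes. Per ERCC count the median of the 30 was -0.31, with 12 lower and 10 higher. Several of these genes had paternal shares near the rate of wrong assignment. Gdf9 had 14 paternal counts in WT and 72 in KO, beside 14942 and 80819 maternal ones, and Bcl2l10, Bmp15, Rfpl4, Oosp1, H1foo and Spin1 had paternal shares of 0.0215 to 0.190% in either group. Their paternal ratios per ERCC count followed those of the maternal copies, 2.65 and 2.72 for Gdf9 and 3.31 and 4.24 for H1foo. Ccnb1, cyclin B, with paternal shares of 16.9% in WT and 2.98% in KO, is not at that level. It had a ratio of 1.09 and was at -0.38 per ERCC count.

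Sperm transcripts could carry paternal sequence without new transcription. Of 25 listed genes 7 were measured, 3 lower and 1 higher, with a median of 0.53. Without WT replicate 8 there were 6, with a median of -0.28, the only list whose median changed sign without that library. Tnp1, a spermatid nuclear protein, had 78 counts in WT and 3 in KO, all paternal, a ratio of -2.95 (-5.26 to -1.35), and stood at 0, 23.6 and 116 paternal CPM in WT and 0, 0 and 42.9 in KO, with the KO counts in replicate 5. Of the 7 sperm markers only Tnp1 reached 1 CPM of total counts in WT, and Smcp was at 0 in both pools. Pgk2, a spermatid enzyme, was at 3.69, or 5.62 without WT replicate 8, and Ldhc at -1.08. The sperm markers held 83 of 2315616 paternal counts in WT and 14 of 689118 in KO.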

How the data were processed

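Total, maternal and paternal counts per gene were used as the authors deposited them, as whole-number counts in 3 tables of 24450 genes, with 92 ERCC rows that hold counts in the total table only. The submitters' processing notes name Trim Galore 0.6.6, cutadapt 1.15, STAR 2.6.0a, HTSeq 0.10.0, featureCounts 2.0.1 and SAMtools 0.1.18 and the build mm9, without saying which served these tables. How reads were assigned to a parent is not given in the sources used here. In 0.838% of the gene values above 0 the allele counts exceeded the total count.

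Paternal counts were summed over the 8 WT and 9 KO libraries and scaled to total paternal counts or to ERCC counts with Python 3.11.15, pandas 2.3.3 and scipy 1.17.1. Ratios have exact conditional Poisson intervals, and a pool at 0 was set to 3 counts over the group. Genes needed 50 summed paternal counts in either group. TMM factors from edgeR 4.0.16 and size factors from DESeq2 1.42.0 were used only as other scalings. The calls were also made on data simulated with counting error only, where 0.687% of unchanged genes were called. Those data hold no spread between libraries, so they cannot show how far the calls depend on it. X-linked members were found by symbol in a RefSeq gene table of GRCm38.p6, which gave a chromosome for 6136 of the 6296. The 14 WT oocyte libraries set the oocyte classes, and 178 samples of the series were not used.

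Named genes were the 12 lowest and 12 highest ratios among genes with 100 counts, a count in 75% of libraries and a 10% paternal share in the higher group, whose other group had 75% of its libraries beyond that group's median. Predicted gene models were passed over. Next came the 10 genes with the most WT paternal counts, up to 6 genes of largest ratio per list, and members of the imprinted, DNA methylation, stored oocyte, mitochondrial, sperm, X-linked and Y-linked lists. Not every gene of that rule is printed, and 1 of the highest is not reported here. Those printed from outside it were chosen after their values were seen: Zfp352, Timd2, Trim43b, Usp17lb, Tmem92, Zscan4d, Higd1a, Zfp600 and 3110045C21Rik. The members and the 26 gene lists were chosen with earlier results of these data known. None of the mitochondrial genes was in the allele tables.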

Additional observations from a re-analysis of the deposited data

Results flagged for a closer look

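Values far from the rest of their group were looked for in 132 sets, and 41 held one. Chance gives about 1 in 20, and many sets here share a library.

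WT replicate 8 lay apart in 3 library measures: 649 maternal counts per ERCC count, 1714 total counts per ERCC count and a paternal share of 42.3% over genes under 1 CPM in oocytes. Its paternal CPM were the far value for Cxcl1 (135), Fbxw21 (714), Stc1 (135), Kdm1b (1022), Mid1 (117), Rplp0 (11541), Zfp352 (6919), Usp17lc (634), Tmem92 (2678) and Ldha (659). For each of these genes it was the highest WT library, and each was called higher in KO. What sets this library apart was not tested.

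The X-linked paternal share lay apart in WT replicate 3, at 34.9%, and in KO replicate 1, at 7.72%, libraries with at most 2 Y-linked counts.

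In KO a single library held all 1 to 3 counts of 9 genes: Zfp160 at 10.96 CPM in replicate 2, Tmem216 at 23.0 in replicate 3, Platr22 at 7.82 in replicate 8, Zmat5 at 11.49 in replicate 3, Atp1b2 at 14.3 in replicate 5, Tdpoz2 at 19.3 in replicate 6, Pafah1b3 at 10.96 in replicate 2, Synpr at 11.49 in replicate 3 and Tnp1 at 42.9 in replicate 5. Hspb1 stood at 76.4 in KO replicate 4 and Smad7 at 45.7 in KO replicate 9. Zfp994 had its 1 WT count in replicate 1, at 6.09.

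KO replicate 9 was highest for Bivm (1233), Paip1 (58552) and Id2 (6577), and KO replicate 4 for Wdr89 (698) and Stc1 (1211). Cxcl1 reached 1628 in KO replicate 1, Zscan4d 1213 in KO replicate 6 and Dppa3 1620 in KO replicate 3. In WT, Cxadr and Ms4a8a were highest in replicate 7 (775 and 23.5), Zfp979 and Tnp1 in replicate 1 (8265 and 116), Set in replicate 3 (4124) and Smad7 in replicate 4 (197).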

How the results depend on the processing

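No paired analysis was possible because the results come from no test and the replicate numbers only name single libraries. Per ERCC count 4756 genes were lower and 191 higher, and scaled to total gene counts 5676 and 85. A 200-count filter gave 956 and 243, a filter of 1 count 3416 and 5837, and a 20-count filter 1769 higher. A 4-fold threshold gave 1032 and 306, an interval wholly past 2-fold 1282 and 557, and the median of library CPM 3363 lower. Among genes under 1 CPM in oocytes, an alternative chosen after seeing the data, 552 were lower and 233 higher. The cause of these shifts was not tested, beyond the fewer genes of stricter settings.

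The log2 ratio of paternal counts was -2.29 when scaled to total counts. The paternal share over genes under 1 CPM in oocytes was 47.7% in WT and 37.5% in KO. The medians of the oocyte classes per ERCC count were -2.08, -1.98 and -1.83. Per ERCC count the stored oocyte list turned to -0.31, Rplp0 to -0.28, Zscan4d to -0.15, Kcnq1ot1 to -0.43, Nap1l4 to -0.24 and Ccnb1 to -0.38, as every ratio shifts by -1.47. For the X-linked genes, leaving out single libraries moved Rpl10 between -4.57 and 0.059 (without KO replicate 1 and without WT replicate 8) and Rps4x between -5.16 and 3.94 (without KO replicate 1 and without WT replicate 3).

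Leaving out each library in turn gave 1997 to 2340 genes lower and 761 to 917 higher, -1.60 to -1.34 for paternal counts per ERCC count, 13.3 to 18.2% for the WT share and 2.48 to 3.21% for the KO share. Of 99 called genes named in the text, 11 fell under 2-fold without some library, 53 moved by over 1.5 times and 2 reversed. Without the library of their only KO count, Zfp160 went to -5.75 and Platr22 to -4.75. A pool at 0 is set to 3 counts, so losing that count made the ratio less negative. Zmat5, Atp1b2, Tdpoz2, Pafah1b3 and Synpr, with 1 KO count each, moved in the same way. Bid went to -6.94 without KO replicate 8 and Gadd45g to 1.78 without KO replicate 4. Beside X-linked genes those under 2-fold were Ccnb1, Inpp5f, Kcnq1ot1, Ldhc, Nap1l4 and Zscan4d. Paternal depth in KO, down to 21895 counts in a library, limits what can be seen of weakly expressed genes.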
